A study of Mus musculus with 27 samples.

Results

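Cobalamin (vitamin B12) has to be taken up, freed from the lysosome, stripped of its upper ligand and passed to the enzymes that need it, and 10 genes of these steps are described here in mouse colonic epithelium after exposure to the dioxin TCDD. They were picked by name, as the cobalamin-handling and cobalamin-dependent enzyme genes Mtr, Mtrr, Mmaa, Mmab, Mmachc, Mmadhc, Abcd4 and Cd320, with Mcee and Pcca of the propionyl-CoA route. All 10 were found among the 46078 gene rows of the count tables, and all 10 passed the filter on low counts that left 16496 genes. RNA-Seq was performed on scrapings from the colon of 27 male C57BL/6 mice, 3 in each of 9 dose groups. One group received sesame oil vehicle and the others TCDD, at 8 doses spread roughly evenly on a log scale from 0.01 μg/kg up to 30 μg/kg. An oral gavage was given once in 4 days over 28 days, which made 7 gavages. The mice were 28 days old at the first gavage and 56 days old at the end. No transgene, deletion or second agent was involved, so the groups differ by the dose of TCDD, but a single strain, a single sex and scraped rather than sorted cells were sampled.

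TCDD is a persistent chlorinated compound that binds the aryl hydrocarbon receptor (AhR), a transcription factor with a large set of target genes. In the cell, cobalamin bound to transcobalamin is taken up through the receptor Cd320, leaves the lysosome through the transporter Abcd4 and its partner Lmbrd1, is processed by Mmachc and is directed by Mmadhc to the cytosol or the mitochondrion. In the cytosol methylcobalamin serves methionine synthase (Mtr), which is kept active by its reductase Mtrr. In the mitochondrion Mmab makes adenosylcobalamin and Mmaa guards its loading onto methylmalonyl-CoA mutase (Mmut, listed under the symbol Mut in the annotation), which completes the conversion of propionyl-CoA to succinyl-CoA begun by propionyl-CoA carboxylase (subunits Pcca and Pccb) and Mcee. The colon is not the main site of dietary cobalamin uptake, which is the terminal ileum, but its epithelium receives propionate from bacterial fermentation.

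Gene counts totalled 9305441 to 14371035 per mouse (median 11651026). Cyp1a1, an AhR target that serves as the check of exposure, had 0 to 1 counts in vehicle-treated mice and 23969 to 29287 counts at 30 μg/kg. The epithelial markers Epcam, Vil1, Cdx2, Krt20, Car1, Slc26a3, Muc2 and Lgr5 were all detected, with a summed level of 38796 to 47795 counts scaled to library size (CPM) in vehicle-treated mice and 39367 to 47302 CPM at 30 μg/kg. That sum is mostly Muc2, a goblet cell mucin (mean 37701 CPM), and single markers moved within it. At the top dose Lgr5, a stem cell marker, fell, with a log2 fold change of -1.40 (adjusted p = 6.1e-05, edgeR), and Vil1, villin of the brush border, had one of 0.36 (adjusted p = 0.0126), under 1.5-fold. Markers of other cells were detected as well, none of them at 0 in every mouse. The summed 8 smooth muscle markers had 76.7 to 124 CPM in vehicle-treated mice against 124 to 730 CPM at 30 μg/kg, 4 adipose markers 0.983 to 9.37 against 7.97 to 91.2 CPM, 8 immune markers 61.4 to 77.03 against 45.4 to 141 CPM and 4 fibroblast markers 81.7 to 104 against 64.7 to 157 CPM. Of these, adipose Cfd (log2 fold change 3.03, adjusted p = 0.0390) and fibroblast Dcn (1.51, adjusted p = 0.0398) were past the threshold. Summed levels of 4 small intestinal markers were 56.0 to 95.9 CPM in vehicle-treated mice and 50.99 to 95.9 CPM at 30 μg/kg, a sum that is mostly the bile acid transporter Slc10a2 (mean 72.9 CPM, log2 fold change -0.64, adjusted p = 0.356). Lct, lactase, rose, with a log2 fold change of 3.17 (adjusted p = 0.0307), from a low level (1 to 224 counts over all mice). The part of these markers and of other cells in the results was not tested, and in bulk tissue fewer cells of a type and less RNA per cell cannot be told apart. Each library was put in an index set by the first or second use of its barcode, as read from the deposited names in order of mouse number, and no source used here calls these sets a batch. The first set (16 mice, all those up to 0.3 μg/kg with 1 of those at 1 μg/kg) and the second (11 mice, the remaining 2 at 1 μg/kg and all above) follow the dose. The index set and the dose therefore cannot be told apart in comparisons of the high doses with vehicle, and comparisons within the second set are given beside them.

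None of the 10 genes passed the threshold at any dose. Over 80 comparisons (10 genes at 8 doses, edgeR's quasi-likelihood test, Benjamini-Hochberg adjustment over all genes, threshold of a 1.5-fold change with an adjusted p under 0.05), 0 passed, 13 had an unadjusted p under 0.05 and the smallest adjusted p was 0.0501. By dose the number at an unadjusted p under 0.05 was 0, 1, 3, 0, 1, 3, 2 and 3 of 10, beside 6.35%, 4.64%, 6.37%, 5.19%, 9.80%, 16.0%, 17.8% and 27.02% of all genes tested, so the 3 of 10 at 30 μg/kg lay near the share of all genes. DESeq2 and limma voom also called 0 of the 10 at 30 μg/kg. Among all genes tested the share called was 0% for each of the 4 doses up to 0.3 μg/kg, and from 1 μg/kg up it was 0.2%, 0.697%, 1.78% and 6.16% in order of dose. The differences were positive in 60 of the 80 comparisons, but the 8 doses share the same 3 vehicle-treated mice and so are not independent. At 30 μg/kg the median log2 fold change of the 10 genes was 0.13, beside a median of -0.002 over all genes, and 8 of the 10 genes were higher than in vehicle. The 95% interval lay within a 1.5-fold change in either direction for 8 of the 10 genes at 30 μg/kg, all but Mtrr and Mmachc, and within a 2-fold change for 10 of 10. These intervals are from the fit without the index set as a term, and with that term the log2 fold change of Mtr was 0.71 (adjusted p = 0.115), past 1.5-fold in the estimate.

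**Figure D1:**
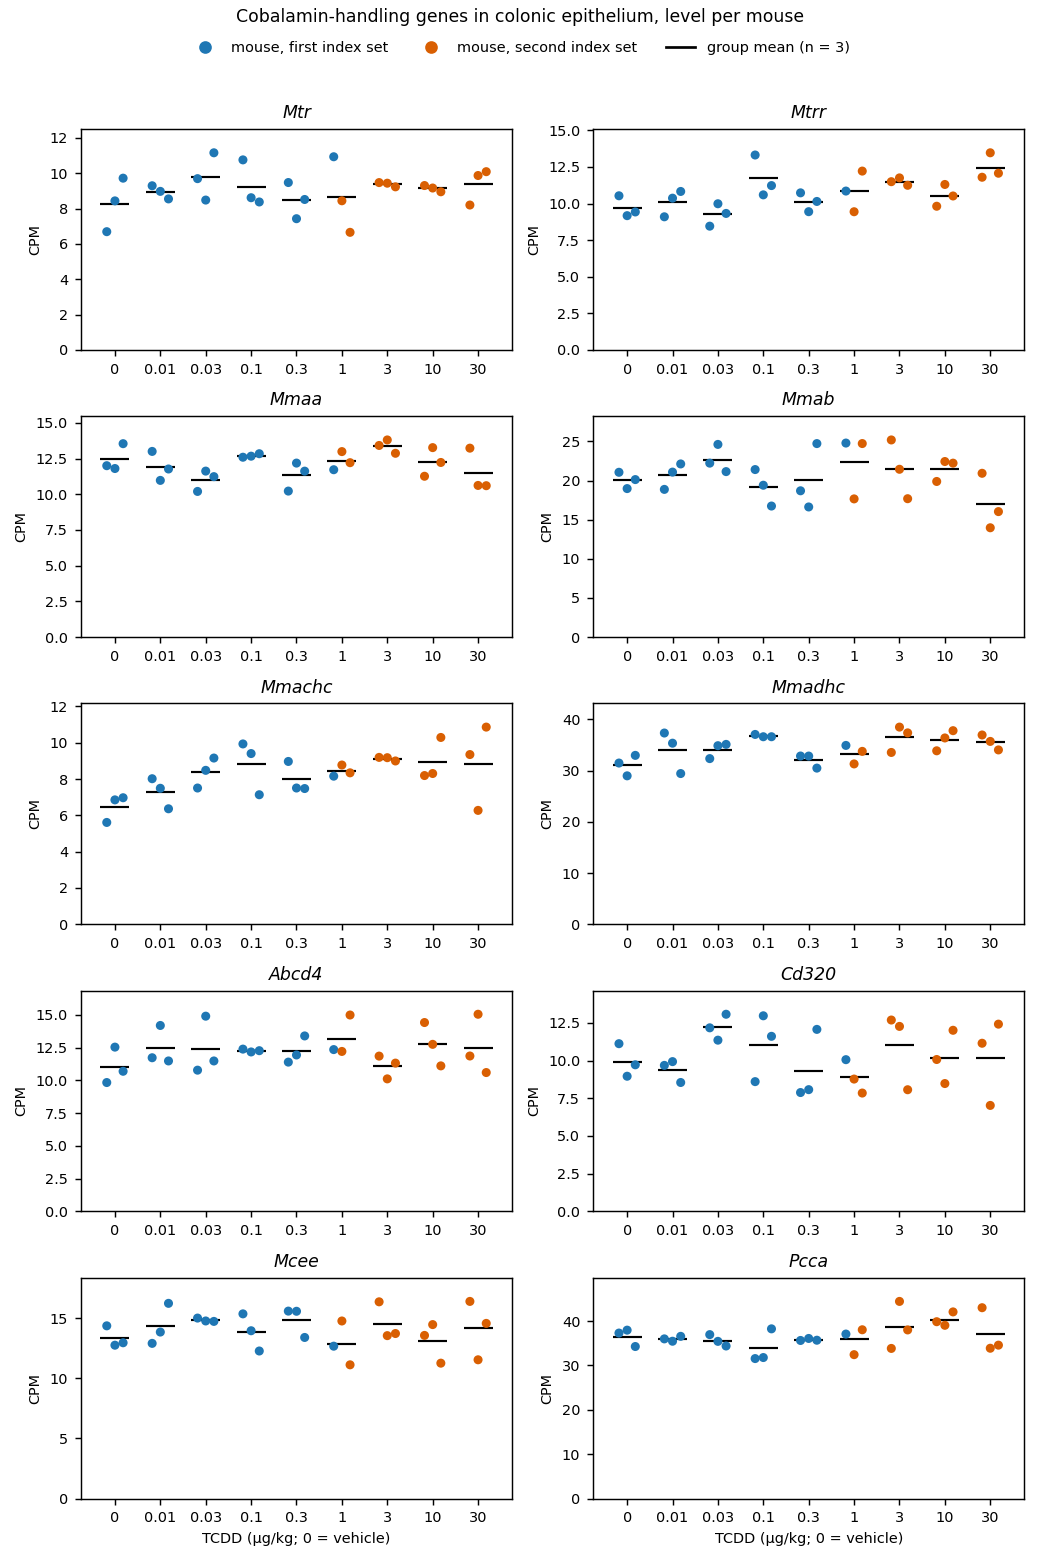
Level of each gene in CPM (vertical axis, from 0) in every mouse (points) by TCDD dose in μg/kg (horizontal axis), with the mean of the 3 mice of a group as a line and the index set as colour. Each gene stays within a 1.94-fold range over the 27 mice, with Mmachc lowest in the vehicle group and Mtrr highest at 30 μg/kg.

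Compared per kilobase of exonic length, mean levels over the 27 mice ran from 1.06 CPM per kb for Mtr to 17.1 CPM per kb for Mmadhc. Mcee had 14.6 CPM per kb, Pcca 7.03, Mmab 5.60, Mmachc 3.71, Cd320 3.55, Mtrr 2.06, Mmaa 2.01 and Abcd4 1.53. Mmut, the mutase that uses adenosylcobalamin, had 15.7 CPM per kb and Pccb, the other carboxylase subunit, 45.0 CPM per kb. The mutase was thus read at a higher level per kb than Mmab, which makes its cofactor, or Mmaa, which guards the loading, and Mtr lay below its reductase Mtrr. The length used merges all annotated exons of a gene and is not that of the transcript expressed, which limits such comparisons between genes. Each of the 10 genes varied little between mice, the highest mouse exceeding the lowest by 1.33-fold (Mmadhc) to 1.94-fold (Mmachc). The coefficient of variation within dose groups was 6.25% for Mmadhc to 18.4% for Cd320, beside 4.93% to 10.5% that counting alone would give at 57 to 598 reads per gene and mouse. The median biological coefficient of variation was 10.7% for the 10 genes and 12.5% for all genes tested.

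The steps that bring cobalamin into the cytosol come first. Cd320 (ENSMUSG00000002308, plus strand of chromosome 17, 33843091 to 33849774 in GRCm38, GENCODE M21 annotation) encodes the transcobalamin receptor. It had 11.1, 8.96 and 9.72 CPM in the 3 vehicle-treated mice and 11.1, 7.02 and 12.4 CPM in the 3 mice at 30 μg/kg. The groups overlapped, and 1 mouse at 30 μg/kg was the lowest of all 27 mice. The log2 fold change was 0.04 (standard error 0.21, adjusted p = 0.935). Group means of Cd320 ran from 8.89 ± 1.11 CPM at 1 μg/kg to 12.2 ± 0.859 CPM at 0.03 μg/kg (SD, n = 3), with no order by dose. Abcd4 (ENSMUSG00000021240, minus strand of chromosome 12, 84601464 to 84617413) had 9.84, 12.5 and 10.7 CPM in vehicle-treated mice and 11.9, 15.1 and 10.6 CPM at 30 μg/kg. These groups overlapped too, with a log2 fold change of 0.18 (standard error 0.15, adjusted p = 0.462). The vehicle group had the lowest mean of Abcd4, 11.03 ± 1.38 CPM, and the 1 μg/kg group the highest, 13.2 ± 1.57 CPM.

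Mmachc, the enzyme that removes the upper ligand of cobalamin and binds it in the cytosol, showed the largest difference from vehicle of the 10 genes at every dose but 0.01 μg/kg. The gene (ENSMUSG00000028690, minus strand of chromosome 4, 116702279 to 116708406) was among the lowest of the 10 in counts. Its transcription is known from human genetics to depend on HCFC1 acting with THAP11 and ZNF143, and the RefSeq promoter (GRCm38.p6, chr4:116708336-116708635, minus strand, 250 bases before to 50 after the start) is shown because it holds a match to the box read by those factors, ACTACANNT. The match, in capitals, lies on the opposite strand 21 to 13 bases before the start.

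Mmachc promoter: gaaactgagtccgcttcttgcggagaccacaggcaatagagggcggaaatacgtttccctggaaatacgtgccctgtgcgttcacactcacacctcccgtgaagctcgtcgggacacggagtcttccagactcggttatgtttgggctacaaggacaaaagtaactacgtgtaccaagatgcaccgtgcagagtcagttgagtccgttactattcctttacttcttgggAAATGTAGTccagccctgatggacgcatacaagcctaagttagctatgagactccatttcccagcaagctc

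Vehicle-treated mice had 5.61, 6.85 and 6.97 CPM of Mmachc, from 57 to 71 counts. The 3 mice given 3 μg/kg had 9.19, 9.18 and 8.996 CPM, those given 10 μg/kg 8.19, 8.30 and 10.3 CPM and those given 30 μg/kg 9.35, 6.27 and 10.9 CPM. From 0.03 to 10 μg/kg all mice lay above all 3 vehicle-treated mice, whereas 1 mouse of the top dose fell inside the vehicle range. The log2 fold changes from 0.03 μg/kg up, in order of dose, were 0.37, 0.44, 0.30, 0.38, 0.49, 0.47 and 0.45, without a steady increase. For the top 3 doses the adjusted p values were 0.149, 0.136 and 0.0909. Over single mice left out, the log2 fold change of the top dose ran from 0.28 to 0.64. The upper end was the fit without that mouse (replicate 2 at 30 μg/kg), with an adjusted p of 0.0171. Leaving out no other mouse of these 2 groups brought Mmachc past the threshold. The 3 regulators did not pass it at 30 μg/kg. Hcfc1 had a log2 fold change of -0.06 (adjusted p = 0.703), Thap11 0.03 (adjusted p = 0.910) and Zfp143, the mouse gene of ZNF143, -0.28 (adjusted p = 0.344).

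Mmadhc, which hands cobalamin on from Mmachc (ENSMUSG00000026766, minus strand of chromosome 2, 50279881 to 50296801), had 31.5, 29.0 and 32.98 CPM in vehicle-treated mice. At 30 μg/kg it had 37.0, 35.7 and 34.05 CPM, and the groups did not overlap. The log2 fold change was 0.19 (standard error 0.08, adjusted p = 0.144), and an exact permutation test (two-sided, 3 mice against 3) gave p = 0.1, the smallest it can give. Mmadhc was the least variable of the 10 genes, and its difference from vehicle did not increase beyond 0.24, the log2 fold change at 0.1 μg/kg. Mmachc and Mmadhc were also the pair among the 10 genes with the most similar levels over the 27 mice, at a Pearson r of 0.53. Once group means were removed their r fell to 0.25, and other pairs exceeded it, the highest being Mmab with Cd320 (0.43).

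The number of genes whose mice did not overlap with the vehicle-treated mice was, of 10 and in order of dose, 0, 5, 3, 1, 1, 3, 3 and 2. Over all genes the corresponding shares were 11.4%, 13.3%, 12.4%, 12.4%, 16.2%, 24.6%, 25.2% and 29.7%. Mmachc was among them at 6 doses, Mmadhc at 4 (0.1 μg/kg and the top 3) and Mtrr at 3 (0.1, 3 and 30 μg/kg).

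**Figure D2:**
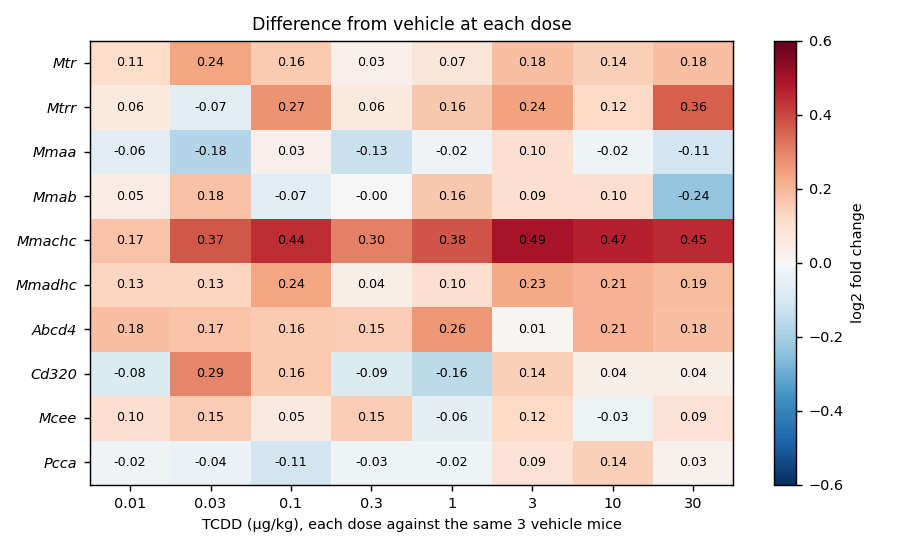
Log2 fold change (colour and printed value) of each gene (rows) at each TCDD dose in μg/kg (columns), each against the same 3 vehicle-treated mice. The row of Mmachc is positive at every dose, up to 0.49 at 3 μg/kg, and Mmab at 30 μg/kg has the lowest value, -0.24.

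In the cytosolic branch, the reductase of methionine synthase lay above vehicle in every mouse at the top dose, and methionine synthase itself did not. Mtr (ENSMUSG00000021311, minus strand of chromosome 13, 12182712 to 12258113) had 6.69, 8.43 and 9.72 CPM in vehicle-treated mice and 8.20, 9.87 and 10.1 CPM at 30 μg/kg, overlapping groups with a log2 fold change of 0.18 (standard error 0.16, adjusted p = 0.517). The RefSeq promoter of Mtr (GRCm38.p6, chr13:12258064-12258363, minus strand) is shown because it was the other one of the 10 genes with the ACTACANNT match, here on the gene's own strand 191 to 183 bases before the start, in capitals.

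Mtr promoter: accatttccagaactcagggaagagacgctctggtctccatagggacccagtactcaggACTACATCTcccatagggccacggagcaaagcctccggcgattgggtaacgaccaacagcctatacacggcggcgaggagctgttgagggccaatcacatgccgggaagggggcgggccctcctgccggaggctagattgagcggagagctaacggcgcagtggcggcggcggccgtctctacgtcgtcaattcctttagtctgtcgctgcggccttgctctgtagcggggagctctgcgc

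Mtrr (ENSMUSG00000034617, minus strand of chromosome 13, 68560780 to 68582149) encodes methionine synthase reductase. It starts 85 bases from the start of Fastkd3, a gene for a mitochondrial RNA-binding protein on the opposite strand, so that both share an upstream region. That region (GRCm38.p6, chr13:68582120-68582419, minus strand) is shown with the core of the AhR response element, GCGTG, in capitals. The core occurs 3 times, at 78 to 74 bases before the start and at 19 to 23 and 35 to 39 bases after it, while the longer form TNGCGTG does not occur.

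Mtrr promoter: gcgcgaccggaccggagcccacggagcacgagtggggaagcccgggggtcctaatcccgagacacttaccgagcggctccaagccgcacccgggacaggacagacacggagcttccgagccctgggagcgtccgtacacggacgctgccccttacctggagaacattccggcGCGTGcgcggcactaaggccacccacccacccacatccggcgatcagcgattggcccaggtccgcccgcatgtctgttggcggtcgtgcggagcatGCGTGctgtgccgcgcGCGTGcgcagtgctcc

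Vehicle-treated mice had 10.5, 9.17 and 9.42 CPM of Mtrr. Mice given 3 μg/kg had 11.5, 11.7 and 11.2 CPM, those given 10 μg/kg 9.81, 11.3 and 10.5 CPM and those given 30 μg/kg 11.8, 13.5 and 12.1 CPM. All mice of the 3 and 30 μg/kg groups lay above the vehicle range, but the 10 μg/kg group overlapped with it. The log2 fold change of Mtrr for the top dose was 0.36 (standard error 0.12, adjusted p = 0.0501), which is under 1.5-fold. Fastkd3 had 13.5, 14.8 and 15.2 CPM in vehicle-treated mice and 17.3, 20.1 and 22.6 CPM at 30 μg/kg, a log2 fold change of 0.46 (standard error 0.13, adjusted p = 0.0239) that also stayed under 1.5-fold.

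In the mitochondrial branch the 30 μg/kg mice overlapped with the vehicle-treated mice for both Mmab and Mmaa. Mmab, the adenosyltransferase (ENSMUSG00000029575, minus strand of chromosome 5, 114431034 to 114444060), had 21.1, 18.97 and 20.1 CPM in vehicle-treated mice and 20.9, 13.97 and 16.03 CPM at 30 μg/kg. The groups overlapped by 1 mouse, and the log2 fold change was -0.24 (standard error 0.16, adjusted p = 0.371). The value for Mmab rested on single mice, being -0.42 without replicate 1 at 30 μg/kg and -0.11 without replicate 2. It was -0.014 with the index set as a term, which is estimated from 1 mouse against 2 at 1 μg/kg, and -0.55 with the clock score. The spread between mice of one dose was wide, for example 16.6 to 24.7 CPM at 0.3 μg/kg and 17.7 to 25.2 CPM at 3 μg/kg. Mmaa, the GTPase that guards the mutase (ENSMUSG00000037022, minus strand of chromosome 8, 79263598 to 79294937), had 12.0, 11.8 and 13.5 CPM in vehicle-treated mice and 13.2, 10.6 and 10.6 CPM at 30 μg/kg, a log2 fold change of -0.11 (standard error 0.11, adjusted p = 0.536). Mmut itself had a log2 fold change of -0.02 (standard error 0.10, adjusted p = 0.907).

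The enzymes that feed the mutase had small differences with narrow intervals. Pcca, the biotin-bearing subunit of propionyl-CoA carboxylase (ENSMUSG00000041650, plus strand of chromosome 14, 122534324 to 122891100), had 37.3, 37.9 and 34.3 CPM in vehicle-treated mice and 43.005, 33.9 and 34.6 CPM at 30 μg/kg. Its log2 fold change came to 0.03, with a 95% interval from -0.18 to 0.24 and an adjusted p of 0.898. The annotation places the noncoding Gm49260 on the same strand of this interval and Ggact and the pseudogene Gm49259 on the other, and the sources used here do not state if reads were counted by strand. Pccb had a log2 fold change of 0.15 (standard error 0.08, adjusted p = 0.247). Mcee, the epimerase between carboxylase and mutase (ENSMUSG00000033429, plus strand of chromosome 7, 64392607 to 64412125), had 14.4, 12.8 and 12.96 CPM in vehicle-treated mice and 16.4, 11.5 and 14.6 CPM at 30 μg/kg. Its log2 fold change was 0.09, with a 95% interval from -0.20 to 0.37 and an adjusted p of 0.735.

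**Figure D3:**
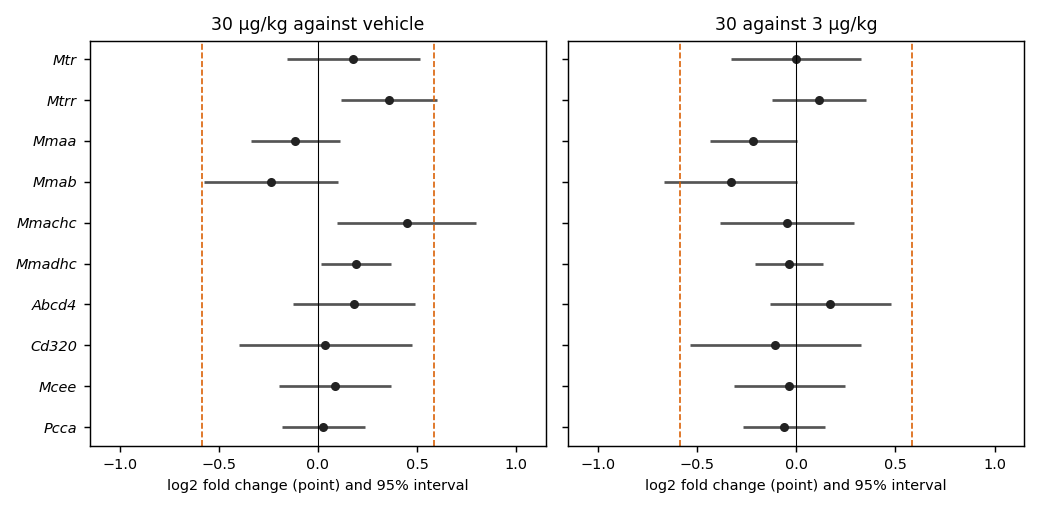
Log2 fold change (point) and 95% interval (line) of each gene at 30 μg/kg against vehicle (left) and against 3 μg/kg (right), with dashed lines at a 1.5-fold change in either direction. The intervals of Mtrr and Mmachc cross the upper line on the left, and that of Mmab crosses the lower line on the right.

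Within the second index set, whose libraries share the second use of their barcodes, the 30 μg/kg mice were compared with the 3 μg/kg mice. None of the 10 genes passed the threshold by edgeR, DESeq2 or limma voom, beside 0.461% of all genes by edgeR, and 0 had an unadjusted p under 0.05. Mmab had the lowest difference, -0.33 (standard error 0.16, unadjusted p = 0.0523, adjusted p = 0.460), followed by Mmaa with -0.22 (standard error 0.11, unadjusted p = 0.0550, adjusted p = 0.466). Mmachc, Mmadhc and Mtrr differed between these doses by -0.05, -0.04 and 0.11. At 10 against 3 μg/kg 0 of the 10 genes passed by these 3 tools, beside 0.0485% of all genes by edgeR, and again 0 had an unadjusted p under 0.05.

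A slope over dose rank (vehicle, then the 8 doses in order) used all 27 mice for 1 estimate per gene. Mtrr and Mmachc passed an adjusted p of 0.05, 2 of the 10 genes, beside 23.4% of all genes tested. Mtrr rose by 0.036 on the log2 scale per dose step (standard error 0.011, adjusted p = 0.0216), which comes to 1.22-fold over the 8 steps. Mmachc rose by 0.046 per step (standard error 0.015, adjusted p = 0.0257), or 1.29-fold over the 8 steps. Mmadhc had a slope of 0.018 (standard error 0.0082, adjusted p = 0.121) and the other 7 genes had adjusted p values between 0.215 and 0.932. With the index set as a term in the fit, the slope of Mtrr was 0.037 (standard error 0.022, adjusted p = 0.426) and that of Mmachc 0.055 (standard error 0.029, adjusted p = 0.369). Neither passed, and of all genes tested 11 did. Within the first index set the slopes were 0.033 for Mtrr (adjusted p = 0.792) and 0.072 for Mmachc (adjusted p = 0.625). Within the second they were 0.052 for Mtrr (adjusted p = 0.567) and 0.0081 for Mmachc (adjusted p = 0.959). Without the vehicle mice the adjusted p was 0.0617 for Mtrr and 0.220 for Mmachc. Leaving out replicate 2 at 30 μg/kg ended the call of Mtrr (adjusted p = 0.0680), and leaving out vehicle replicate 1, replicate 3 at 10 μg/kg or replicate 3 at 30 μg/kg ended that of Mmachc (adjusted p = 0.0626, 0.0521 and 0.0671).

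**Figure D4:**
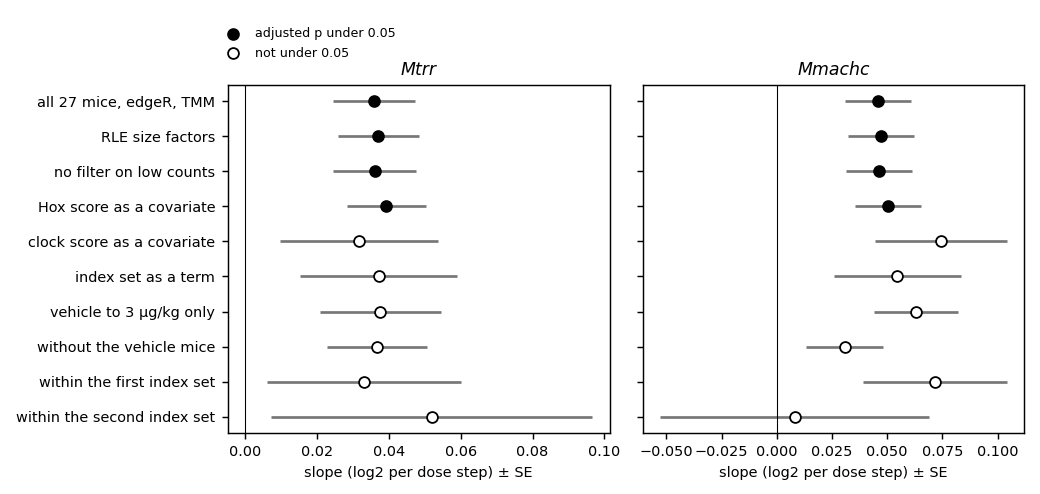
Slope over dose rank (log2 per dose step, point) with its standard error (line) for Mtrr (left) and Mmachc (right) under 10 settings. Filled points have an adjusted p under 0.05. The slope of Mtrr stays between 0.032 and 0.052, and that of Mmachc reaches 0.0081 within the second index set.

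Mice of one dose group also differed in the levels of Hox genes and of clock genes, and the 10 genes were tested against a score of each. A Hox score (first principal component of 25 Hox genes, 69.5% of their variance), which by the known Hox pattern is higher toward the distal colon, was past the threshold for 0 of the 10 genes beside 10.3% of all genes tested, with 2 genes at an unadjusted p under 0.05. Those were Cd320, with 0.12 on the log2 scale per SD of the score (standard error 0.055, adjusted p = 0.197), and Pcca, with 0.062 (standard error 0.026, adjusted p = 0.157). A clock score (10 clock genes that rise together minus 5 that fall) was past the threshold for 0 of the 10 genes beside 0.17% of all genes, and 0 had an unadjusted p under 0.05. Within groups this score spread most at 0.01 μg/kg, with 0.814 SD in 1 mouse beside -1.33 and -0.959 SD. Mice at 3 μg/kg had 0.933 to 1.06 SD and those at 10 μg/kg 0.998 to 1.05 SD. The clock test within groups, and fold changes with this score as a covariate, thus rest largely on 1 mouse at 0.01 μg/kg. The clock score itself moved with dose, from -1.29 to -1.14 SD in vehicle-treated mice to 0.805 to 1.21 SD at 30 μg/kg, and with it as a covariate the slopes of Mtrr and Mmachc were 0.032 (adjusted p = 0.493) and 0.074 (adjusted p = 0.217).

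Of the 10 genes, 6 have a gene that starts within 1 kb upstream on the opposite strand. Besides Fastkd3 for Mtrr these were Mvk at 209 bases from Mmab, Ccdc163 at 103 bases from Mmachc, Mphosph10 at 339 bases from Mcee, and the noncoding Gm4890 at 186 bases from Mmaa and Gm13483 at 9 bases from Mmadhc. Mvk encodes mevalonate kinase of sterol synthesis, and the pair with Mmab is known as a shared target of the sterol-sensing factor SREBP-2. The Mmab promoter (GRCm38.p6, chr5:114443978-114444277, minus strand) is shown as the region that lies between the pair. None of the motifs searched, the sterol element TCACNCCAC included, matched in it, so it is printed without capitals.

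Mmab promoter: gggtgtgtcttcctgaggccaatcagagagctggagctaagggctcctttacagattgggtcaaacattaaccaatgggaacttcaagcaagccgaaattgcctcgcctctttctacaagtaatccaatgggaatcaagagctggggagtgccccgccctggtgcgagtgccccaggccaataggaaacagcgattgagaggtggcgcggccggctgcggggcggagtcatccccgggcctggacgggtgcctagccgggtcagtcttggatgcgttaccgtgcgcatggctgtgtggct

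Levels were compared over the 27 mice in 7 relations (5 of these neighbours, without Gm13483, which did not pass the filter on low counts, Pcca with Pccb, and Mmab with sterol genes), each with 100000 permutations and Benjamini-Hochberg adjustment. Mmab and Mvk varied together, with a Pearson r of 0.61 (permutation p = 0.000830, adjusted 0.00264) and a Spearman rho of 0.69 (permutation p = 7.0e-05, adjusted 0.000490). Without the 2 mice farthest from the median of Mmab r was 0.60, within the first index set 0.71 (16 mice, permutation p = 0.00231) and within the second 0.69 (11 mice, permutation p = 0.0156). With group means removed r was 0.63. Mmab also followed the mean of 12 sterol genes, a relation chosen after its nearest genes had been seen, with r of 0.60 (permutation p = 0.00113, adjusted 0.00264) and rho of 0.61 (permutation p = 0.000990, adjusted 0.00231). For that mean r was 0.56 without the 2 farthest mice, 0.65 within the first index set (permutation p = 0.00651), 0.81 within the second (permutation p = 0.00210) and 0.71 with group means removed. Taken singly, the 12 sterol genes had r of 0.14 to 0.71 with Mmab (median 0.48). Mmaa and Pcca were also positive with all 12, at 0.21 to 0.50 (median 0.41) and 0.21 to 0.48 (median 0.36). By dose neither Mmab nor Mvk moved past the threshold, with a log2 fold change of 0.05 for Mvk at 30 μg/kg (standard error 0.16, adjusted p = 0.870).

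Mtrr and Fastkd3 had a Pearson r of 0.63 (permutation p = 0.000380, adjusted 0.00264) and a rho of 0.67 (permutation p = 0.000240, adjusted 0.000840), and r was 0.65 without the 2 farthest mice. Within the first index set r was 0.45 (permutation p = 0.0795) and within the second 0.56 (permutation p = 0.0743), so that neither set alone reached 0.05, and with group means removed r was 0.51. Fastkd3 rose over dose rank by 0.064 per step (standard error 0.012, adjusted p = 0.000362), and with the index set as a term by 0.021 (standard error 0.022, adjusted p = 0.685). The other relations had adjusted p values of 0.258 to 0.443 for r and 0.350 to 0.515 for rho. Pcca and Pccb, subunits of one enzyme, had an r of 0.25 (permutation p = 0.204) and a rho of 0.18 (permutation p = 0.363), with 0.040 without the 2 farthest mice, 0.093 within the first set and 0.30 within the second.

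**Figure D5:**
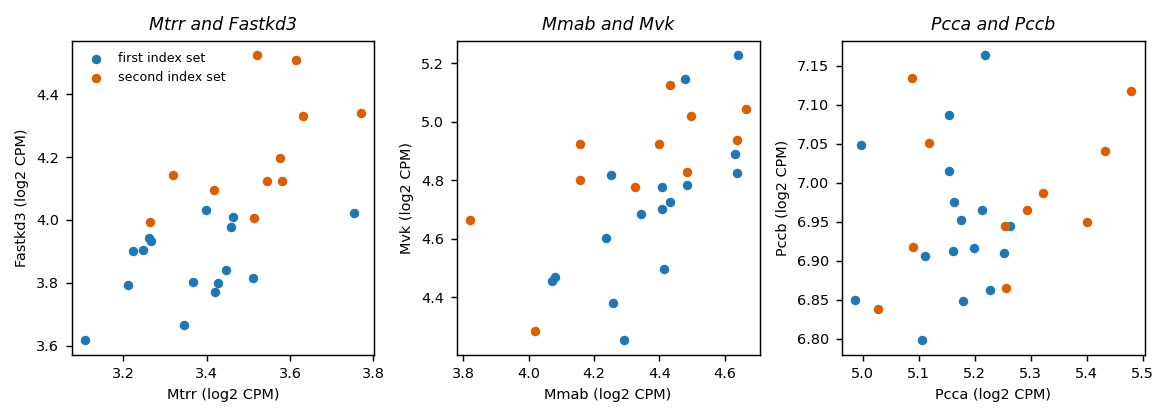
Log2 CPM of Mtrr and Fastkd3, of Mmab and Mvk and of Pcca and Pccb in the 27 mice (points, colour by index set). The first pair has an r of 0.63 over all mice and 0.45 and 0.56 within the index sets, the second 0.61, and 0.71 and 0.69 within the sets, and the third is scattered (0.25).

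The motif search covered the 12 RefSeq promoters of 8 of the 10 genes, those of Mmadhc and Abcd4 not being in the table used, on both strands. The core GCGTG was found in 6 of the 12 promoters, of 4 genes (Mtrr, Mmaa, Cd320 and Mcee), beside 32.4% of all 32851 promoters of the same length of 300 bases. Both promoters of Mtrr overlap and hold the same 3 sites. GC content of the 12 promoters was 50.7 to 76%, beside a median of 52.7% over all promoters, and the shares were not adjusted for it. The longer TNGCGTG, which contains the core, was found in 2 of the 12, of Cd320 and Mcee, beside 5.07% of all promoters, and the log2 fold changes of these genes at 30 μg/kg were 0.04 and 0.09. The box ACTACANNT was found in 2 of the 12, of Mtr and Mmachc, beside 4.16% of all promoters, the D-box TTATGNAA in 1, of Mmaa, beside 3.38%, and the E-box CACGTG and the sterol element for none, beside 7.15% and 1.24%. A match describes these letters only and is neither a bound site nor a cause of a level.

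The genes whose levels were most like each of the 10 over the 27 mice, by Pearson r of log2 CPM among 14566 genes with a mean of at least 1 CPM, are given as a description, since libraries share dose, index set and depth. Among the nearest to Mmab were Acly, ATP citrate lyase of fatty acid and sterol synthesis (r = 0.78), and Plekhd1 (0.70). Nearest to Mmadhc were Ola1, an ATPase (0.80), Mdh1, malate dehydrogenase (0.75), and Suclg1, a subunit of succinyl-CoA ligase downstream of the mutase (0.74). Nearest to Pcca were Me2, mitochondrial malic enzyme (0.70), Btn1a1 (0.69) and Igsf10 (0.68). Those of Cd320 were Oit1, Gstt2 and C1qtnf6 (0.77, 0.76 and 0.75). Those of Mtr were Zw10, Eif3i, a translation initiation subunit, and Ssrp1, a histone chaperone subunit (0.76, 0.75 and 0.69). Mtrr was nearest to L1cam, the splicing factor Sf3b4 and Phykpl (0.72, 0.71 and 0.71), Mmachc to Map3k20, the respiratory complex I subunit Ndufb5 and Atxn10 (0.73, 0.71 and 0.70). Mmaa was nearest to Senp2, Fut2 and Arl1 (0.70, 0.69 and 0.64). Abcd4 was nearest to 1700055D18Rik, Rdh14 and Tas1r3 (0.65, 0.61 and 0.61), and Mcee to Scarna13, Bmyc and Rbms2 (0.64, 0.63 and 0.63).

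Other genes of the pathway were mostly not past the threshold either. Of 59 listed genes 54 were tested, and 1 was called higher and 0 lower at 30 μg/kg, beside 6.16% of all genes called in either direction. That gene was Cbs, cystathionine β-synthase, which draws homocysteine away from Mtr. Cbs had 47.5, 42.9 and 43.7 CPM in vehicle-treated mice and 68.5, 61.0 and 72.5 CPM at 30 μg/kg, without overlap, a log2 fold change of 0.59 (standard error 0.16, adjusted p = 0.0178). Between 30 and 3 μg/kg, within the second index set, Cbs differed by -0.003 (adjusted p = 0.996). Without vehicle replicate 2, with the clock score as a covariate or by a posterior probability of at least 0.8, 0 genes of the lists were called higher.

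A slope over dose rank was called for 13 of the 54, 9 up and 4 down, a share close to the 23.4% of all genes tested, and these slopes are given as values. By list, 15 of 17 genes of the methionine and folate cycle were tested, with 4 slopes up and 1 down and a median log2 fold change at 30 μg/kg of 0.13. Rising were Cbs, Ahcy, which cleaves S-adenosylhomocysteine to homocysteine (0.045 per step, adjusted p = 0.00405), and the folate enzymes Mthfd1 (0.027, adjusted p = 0.0418) and Mthfd1l (0.052, adjusted p = 0.0174). Ahcy went from 43.8, 53.4 and 46.6 CPM in vehicle-treated mice to 63.1, 66.2 and 61.7 CPM at 30 μg/kg, and its log2 fold change of 0.41 (adjusted p = 0.0183) was under 1.5-fold.

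Of the propionyl-CoA route 16 of 16 genes were tested, with 4 slopes up, 2 down (beside the same 23.4% of all genes) and a median of 0.02. Rising were Suclg1 and Suclg2 of succinyl-CoA ligase (0.020 and 0.021 per step, adjusted p = 0.0301 and 0.0499), Echs1, enoyl-CoA hydratase (0.025, adjusted p = 0.0126), and Aldh6a1, methylmalonate semialdehyde dehydrogenase (0.034, adjusted p = 0.0137). The acyl-CoA synthetases Acss1 and Acss3 fell by 0.023 and 0.16 per step (adjusted p = 0.0115 and 0.00742). In the list of cobalamin uptake and its regulators 9 of 11 genes were tested, with 1 slope up (Lmbrd1, the lysosomal partner of Abcd4, 0.029, adjusted p = 0.00669), 1 down (Abcc1, a cobalamin exporter, which fell by 0.028, adjusted p = 0.0300) and a median of -0.06. The itaconate list had 2 of 3 genes tested and the sterol list 12 of 12, each with 0 slopes and 0 calls by edgeR, with medians of 0.03 and 0.01. The median over all 54 genes was 0.03, beside -0.002 over all genes. With the index set as a term, none of these 13 slopes had an adjusted p under 0.05 (0.174 to 0.939), as was so for Mtrr and Mmachc.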

How the data were processed

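The authors deposited raw counts for each mouse, whole numbers of reads per gene with 5 closing lines that name no gene. Per the labels the processing notes name FastQC 0.11.3, Trimmomatic 0.33, TopHat2 2.1.0, SAMtools 1.2.0, HTSeq 0.6.1 and GRCm38. The annotation release and the use of strand are not given in the sources used here. The closing lines stayed out of library sizes, the largest being reads with more than 1 alignment (30.7 to 37.1%) and with no feature (29.1 to 33.3%). Symbols and coordinates are from GENCODE M21, which matched 45143 of 46078 rows, and promoters from RefSeq.

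With edgeR 4.0.16 in R 4.3.3, a filter on low counts (filterByExpr, minimum 10) left 16496 genes, which were scaled by TMM and entered 1 quasi-likelihood fit of all 9 groups. Adjusted p values are Benjamini-Hochberg over these genes. A call needed a 1.5-fold change and an adjusted p under 0.05, slopes and scores the latter alone. Standard errors were derived from the F statistic, and log2 CPM used a prior count of 2. The fit was tested on simulated data. Alternatives were RLE size factors, DESeq2 1.42.0, limma voom (3.58.1), no filter, covariates, subsets of groups and each mouse left out. Slopes without vehicle and within index sets were added after seeing the data.

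The members and lists were chosen with earlier results of these data known. The genes named are the 10 members, list genes past a threshold, Mmut and Pccb, head-to-head neighbours, the 3 most similar genes of each member, and Cyp1a1. Some genes that this rule names are not reported here. Mmachc's 3 regulators and Mvk's values were named after they were seen. No source says that the mice of a group were housed apart, and no pair within a group agreed within sampling noise (smallest chi-square per degree of freedom 5.32 over 27 pairs). The depth limits low genes, where counting alone gives up to 10.5% error.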

Additional observations from a re-analysis of the deposited data

How the results depend on the processing

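No paired analysis was possible because replicate numbers were given in accession order and pair no mice. The count of 0 genes past the threshold held at every dose and within the second index set under all alternatives run, except that it was 1 at 30 μg/kg without TCDD 30 replicate 2 (range 0 to 1 over mice left out). The 2 slopes became 0 with the index set as a term, with the clock score as a covariate, from vehicle to 3 μg/kg only, without the vehicle mice and within each index set, and were 1 to 2 over mice left out. The cause was not tested. From vehicle to 3 μg/kg the slopes were 0.038 for Mtrr (adjusted p = 0.243) and 0.063 for Mmachc (adjusted p = 0.0722). Genes of the lists called higher at 30 μg/kg numbered 2 with the index term, 0 with the clock score, 0 by a posterior probability of at least 0.8, 5 by adjusted p alone and 0 to 1 over mice left out, and those called lower 1 with the Hox score.

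Signs turned only for genes that were never past a threshold. With the clock score the difference from vehicle at 30 μg/kg (log2) was -0.18 for Mcee and -0.067 for Pcca. Over mice left out it ran from -0.12 to 0.24 for Cd320, from -0.034 to 0.21 for Mcee and from -0.092 to 0.090 for Pcca. It kept its sign but also ran widely for Abcd4 (0.030 to 0.29), Mtr (0.051 to 0.31) and Mmaa (-0.23 to -0.049). The slope turned with the index term for Mmaa (-0.026), Cd320 (0.014) and Mcee (0.011), and with the clock score for Mmaa (-0.012), Cd320 (0.032) and Pcca (-0.0035). It turned from vehicle to 3 μg/kg for Mmab (0.011) and Mcee (0.0015), and without the vehicle mice for Abcd4 (-0.0010). Within the first index set it was -0.015 for Mmaa, 0.013 for Mmab, 0.0011 for Cd320, 0.0080 for Mcee and -0.0063 for Pcca, and within the second -0.058 for Mmaa, -0.0023 for Abcd4, 0.057 for Cd320 and 0.021 for Mcee. Over mice left out slopes ran from -0.00014 to 0.0089 for Mmaa, from -0.010 to 0.0082 for Cd320 and from -0.011 to 0.0023 for Mcee.

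Over all genes, 1016 were called at 30 μg/kg, but 662 with only these groups fitted, 425 with the clock score, 218 by posterior probability, 1818 by adjusted p alone and 590 to 1107 over mice left out. Slopes numbered 3865, but 11 with the index term, 75 with the clock score, 412 to 3 μg/kg only, 1 within the first index set and 494 within the second.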
